A study of Mus musculus with 15 samples.

Results

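Sh3gl3, Pim2, Tead2, Map4k2, Nop56, Rapgef4 and Tmem131l are protein-coding genes whose levels in mouse large intestine were lower after oral cymopol or non-polar (NP) algal extract than after the vehicle. The 7 genes were chosen by their FPKM, which was higher in the Control libraries than in at least 2 of the treated groups. They are 7 of 11505 genes tested and of 43316 genes with a value in every library, and all 7 passed the filter on low values. Since the contrasts with Control chose these genes, their values in those contrasts are given below as a description, without a test. FPKM counts fragments relative to transcript length and library size.

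RNA came from large intestine of male C57Bl/6 mice aged 4 weeks, in 15 libraries of 5 groups with 3 libraries each. Cymopol, a brominated hydroquinone terpenoid known from a green alga, was used at 1.4 mmol/kg (high dose) or 0.3 mmol/kg (low dose), and the NP extract at 1.0 g/kg (high dose) or 0.3 g/kg (low dose). Control mice received the vehicle, which every group shared: Chremophor EL (a castor oil based solubiliser, spelled here as in the labels) with 10% DMSO. Gavage was repeated on 3 consecutive days, and the tissue was collected 12 h after the final gavage. Whether the 3 libraries of each group came from separate mice is not stated in the labels, so the p-values below may measure only the spread between samples.

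The genes belong to separate systems. Sh3gl3 encodes endophilin A3, one of the proteins that bend membrane and recruit dynamin and synaptojanin during endocytosis, and Rapgef4 encodes EPAC2, an exchange factor that switches on Rap GTPases when it binds cyclic AMP. Pim2 and Map4k2 encode serine/threonine kinases: PIM2 is a short-lived kinase that favours cell survival and is best known in lymphocytes, and MAP4K2, also called germinal centre kinase, acts upstream of JNK. Tead2 encodes a TEA domain transcription factor that binds the Hippo pathway effectors YAP and TAZ. Nop56 encodes a core protein of the box C/D particles that direct 2'-O-methylation of ribosomal RNA, and introns of the gene hold small nucleolar RNA genes. Tmem131l encodes a transmembrane protein that has been tied to Wnt co-receptor turnover in thymocytes.

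The promoter windows of 4 of the genes are shown because these carry the patterns described below. Sh3gl3 and Rapgef4 were the 2 genes whose Control libraries lay above every treated library. Nop56 and Tmem131l were the 2 with groups that did not overlap in any of the 4 contrasts between treated groups. This was so between the cymopol doses for Nop56 and between the doses of each agent for Tmem131l. Each window runs from 250 bases before to 50 bases after a RefSeq start on GRCm38.p6, and capitals mark matches to GGGCGG (GC box), CCAAT or CACGTG (E-box) on either strand, overlapping matches included.
Sh3gl3, chr7:82174546-82174845, plus strand: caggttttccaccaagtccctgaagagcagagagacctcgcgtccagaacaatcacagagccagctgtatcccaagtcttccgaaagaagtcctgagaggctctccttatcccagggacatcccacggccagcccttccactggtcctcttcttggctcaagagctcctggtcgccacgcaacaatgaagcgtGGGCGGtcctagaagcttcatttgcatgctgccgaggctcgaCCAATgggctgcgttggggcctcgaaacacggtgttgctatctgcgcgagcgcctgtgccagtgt
Rapgef4, chr2:71980965-71981264, plus strand: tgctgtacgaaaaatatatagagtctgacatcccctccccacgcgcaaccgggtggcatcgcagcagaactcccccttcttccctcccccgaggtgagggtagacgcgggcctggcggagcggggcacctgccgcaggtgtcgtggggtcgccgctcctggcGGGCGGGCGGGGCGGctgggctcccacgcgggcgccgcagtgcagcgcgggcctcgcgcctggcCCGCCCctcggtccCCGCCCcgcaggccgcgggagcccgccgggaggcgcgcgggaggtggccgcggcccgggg
Nop56, chr2:130274162-130274461, plus strand: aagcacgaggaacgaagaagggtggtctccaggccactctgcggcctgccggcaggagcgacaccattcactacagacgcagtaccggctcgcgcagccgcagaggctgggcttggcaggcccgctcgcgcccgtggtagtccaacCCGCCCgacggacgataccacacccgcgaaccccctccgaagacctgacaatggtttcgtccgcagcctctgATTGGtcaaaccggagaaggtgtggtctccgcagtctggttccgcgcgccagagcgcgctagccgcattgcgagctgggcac
Tmem131l, chr3:84040112-84040411, minus strand: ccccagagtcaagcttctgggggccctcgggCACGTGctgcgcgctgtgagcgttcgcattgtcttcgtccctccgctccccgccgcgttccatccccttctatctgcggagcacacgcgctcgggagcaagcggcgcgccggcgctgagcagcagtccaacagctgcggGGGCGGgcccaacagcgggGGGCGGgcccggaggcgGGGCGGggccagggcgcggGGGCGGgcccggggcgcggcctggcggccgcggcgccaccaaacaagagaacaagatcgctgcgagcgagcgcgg

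All 7 genes had a window, and the 7 windows held 58.0% to 76.7% G and C, against a median of 52.7% over the 32851 windows of the table. A GC box was present in 7 of 7 windows, against 35.7% of all windows. All windows cover 27025 genes and not only the 11505 tested, so they are no matched background for the 7. The number of GC boxes per window ranged from 1 in Sh3gl3, Nop56 and Pim2 to 5 in Rapgef4 and 6 in Map4k2. CCAAT was present in 4 of 7 (Sh3gl3, Pim2, Map4k2 and Nop56), against 37.4% of all windows, and the E-box in 1 of 7, that of Tmem131l, against 7.15%. No window of the 7 held TATAAA (13.6% of all windows), GGAATG, the core bound by TEAD factors (14.7%), TGACGTCA, the cyclic AMP response element (1.79%), or TGACNNNGC, the antioxidant response element (12.4%). These are matches of letters in 300 bases and say nothing of which factors bind there. The RefSeq start used for Sh3gl3 lies inside the span that GENCODE gives the gene.

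Libraries differed in depth and in where their fragments fell. From the width of the deposited intervals, protein-coding genes held an estimated 288316 to 342028 fragments in the cymopol high dose, 174904 to 556401 in the extract high dose, 31853 to 183362 in the cymopol low dose, 28513 to 106747 in the extract low dose and 25233 to 226531 in Control. The share of tested genes with a listed value of 0 was 5.75% to 13.2% in high-dose libraries, 9.87% to 50.5% in the cymopol low dose and 13.6% to 56.4% in the extract low dose, against 27.1% to 51.3% in Control. The median gene was not level between groups: its log2(FPKM + 1) lay 0.81 above Control in the cymopol high dose, 0.71 above in the extract high dose, 0.23 above in the cymopol low dose and 0.14 below, a difference of -0.14, in the extract low dose. Loci outside annotated genes held 4.13% to 23.6% of the estimated fragments of treated libraries, against 46.8%, 5.46% and 25.2% in Control replicates 2, 4 and 5. Values given to genes held 56.9% to 65.5% of the fragments in high-dose libraries and 33.3% to 71.7% in low-dose libraries. In Control replicates 2, 4 and 5 they held 8.52%, 34.0% and 46.6%. The remaining fragments lay in loci that overlapped genes but were not given to them. Markers of colon epithelium were present in every library (9 of 10 had a value throughout, with summed levels of 98.9 to 2582 FPKM in treated libraries and 87.9, 1070 and 2642 FPKM in Control). Summed over 8 B cell markers, a treated library held at most 31.4 FPKM, against 1.67, 492 and 0.407 FPKM in Control replicates 2, 4 and 5, so Control replicate 4 stood apart. In bulk tissue, fewer cells of a type and less RNA per cell cannot be told apart.

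The mean of log2(FPKM + 1) was below that of Control for all 7 genes in all 4 treated groups, 28 of 28 differences. Over all genes tested, 20.0% lay below Control in the cymopol high dose, 22.6% in the extract high dose, 39.0% in the cymopol low dose and 55.4% in the extract low dose. Values of all 3 treated libraries lay below all 3 Control libraries for 5 of the 7 genes in the cymopol high dose (0.365% of all genes), 5 in the extract high dose (0.452%), 4 in the cymopol low dose (0.834%) and 4 in the extract low dose (1.43%). Sh3gl3 and Rapgef4 did so in 4 groups, Pim2 and Tmem131l in 3, and Tead2 and Nop56 in 2, the fewest that the choice of genes asks for if groups must not overlap. Map4k2 did so in 0 groups, because 1 Control library listed it at 0. Over all genes, 0.661% lay below Control without overlap in at least 2 treated groups, 0.252% in at least 3 and 0.104% in 4. These counts restate how the genes were chosen.

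**Figure D1:**
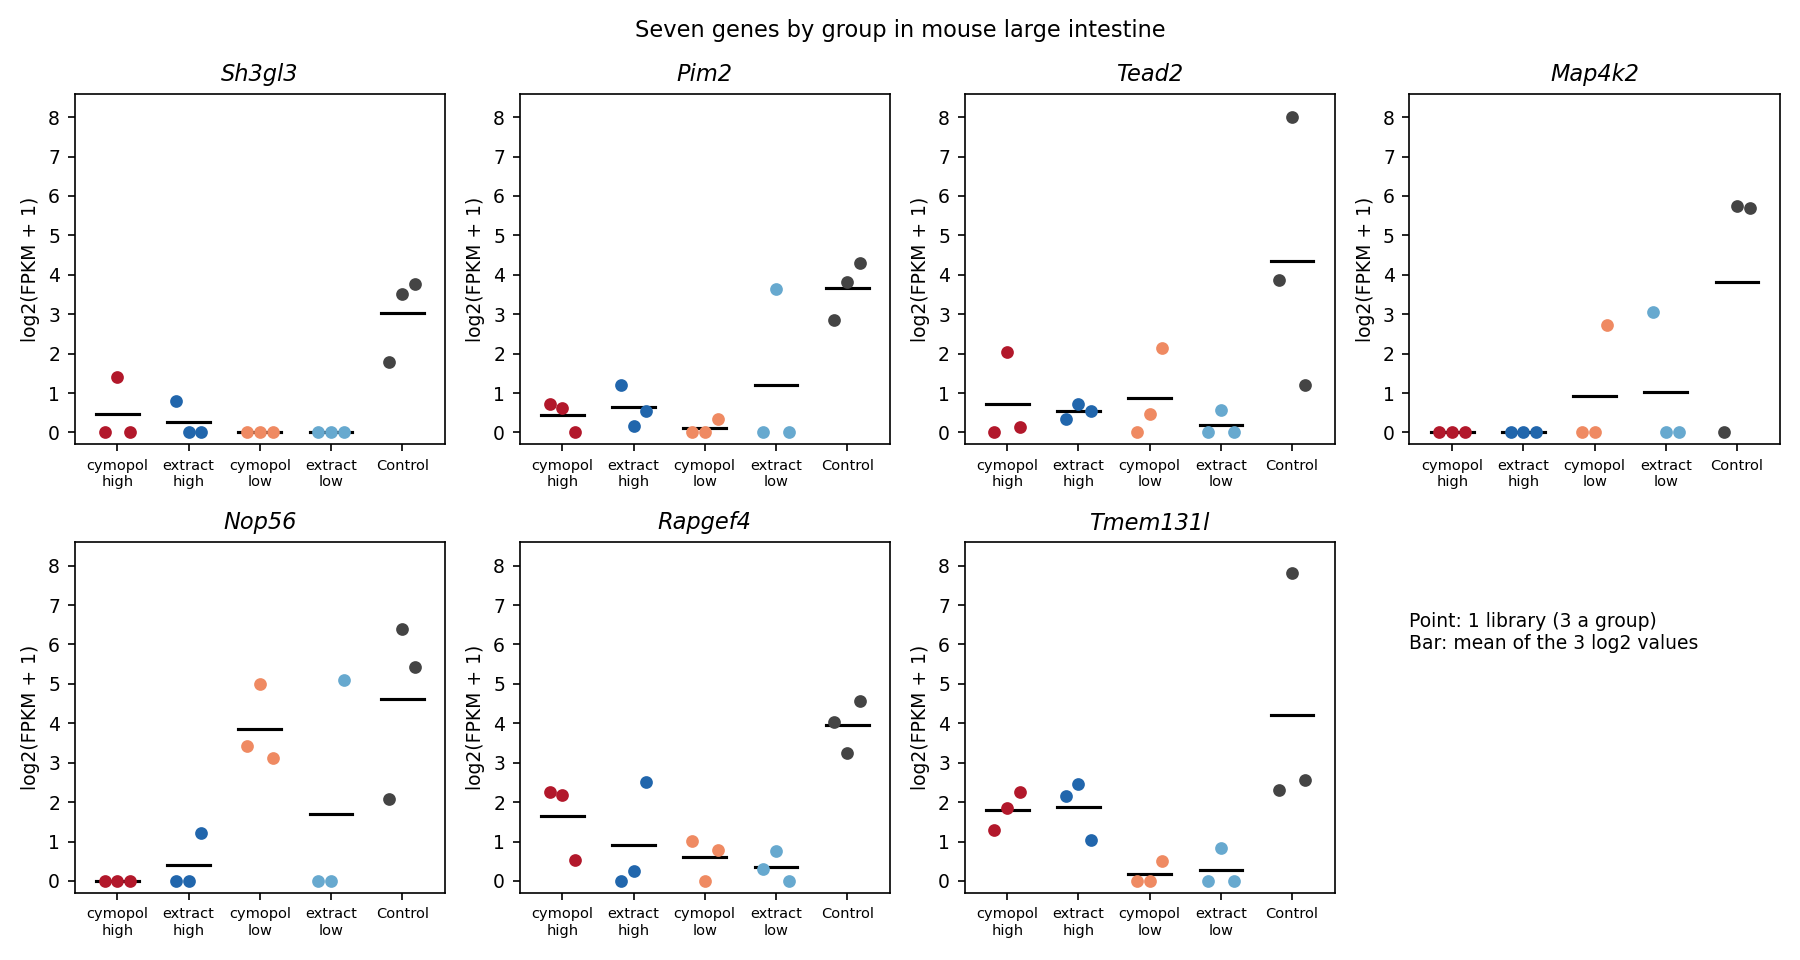
Level of each gene as log2(FPKM + 1) (vertical axes) in the 4 treated groups and Control (horizontal axes); each point is 1 library and each bar the mean of 3. Sh3gl3 and Rapgef4 have all Control points above all treated points, Nop56 is at 0 in all 3 libraries of the cymopol high dose and at 7.75 to 30.9 FPKM in the cymopol low dose, and the Control points of Tead2 and Tmem131l are spread by 1 high library.

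Sh3gl3 (ENSMUSG00000030638; GRCm38 chromosome 7, 82173840 to 82307419, plus strand) had 0, 1.66 and 0 FPKM in the cymopol high dose, 0.725, 0 and 0 FPKM with the high extract dose, and was listed at 0 in all 3 libraries of each low dose, against 2.46, 10.4 and 12.7 FPKM in Control. The Control libraries lay above all 12 treated libraries, of which 10 were listed at 0. The difference from Control in mean log2(FPKM + 1) was -2.55 in the cymopol high dose, -2.76 in the extract high dose, -3.02 in the cymopol low dose and -3.02 in the extract low dose. The treated values rested on an estimated 0.601 fragments in the cymopol high dose and 0.110 in the extract high dose, against 10.9 in Control, so the order of the treated groups among themselves was not detectable at this depth. Its paralogs, which were not tested against it, had these levels. Sh3gl1, the endophilin found in most tissues, had 1.61, 5.42 and 6.36 FPKM in the cymopol high dose, 4.75, 11.5 and 3.31 FPKM with the high extract dose, 0.373, 1.87 and 4.37 FPKM in the cymopol low dose and 0, 4.01 and 0 FPKM in the extract low dose, against 2.13, 8.59 and 5.25 FPKM in Control. Its difference from Control was -0.20 in the cymopol high dose, 0.24 in the extract high dose, -1.05 in the cymopol low dose and -1.74 in the extract low dose, so its mean was below Control in 3 of the 4 groups (limma, adjusted p from 0.940 to 1, none past the threshold). Sh3gl2, the brain endophilin, had 13.5, 3.07 and 4.89 FPKM with the high extract dose, against 1.67, 0 and 0 FPKM in Control, a difference of 2.34 ± 0.95 (SE) that did not pass the threshold (limma, adjusted p = 0.371).

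Rapgef4 (ENSMUSG00000049044; chromosome 2, 71981240 to 72257474, plus strand) had 3.77, 3.50 and 0.446 FPKM in the cymopol high dose, 0, 0.194 and 4.69 FPKM with the high extract dose, 1.01, 0 and 0.719 FPKM in the cymopol low dose and 0.229, 0.705 and 0 FPKM in the extract low dose, against 15.3, 8.45 and 22.8 FPKM in Control. No treated library reached the lowest Control library. The differences from Control were -2.30 and -3.03 in the high doses of cymopol and extract and -3.35 and -3.59 in the low doses of cymopol and extract. When any 1 Control library was left out, the 4 differences stayed between -3.95 and -1.98. Most of the fragments behind the Control level came from Control replicate 2, with 18.7 of 26.0 estimated fragments, which is also the library with the largest share outside genes; the part of that share in the result was not tested. Rapgef3, which encodes EPAC1, the form found in most tissues, had 12.5, 13.5 and 8.11 FPKM in the cymopol low dose and 0, 2.27 and 0 FPKM in the extract low dose, against 3.08, 0.128 and 3.56 FPKM in Control. The cymopol low dose exceeded the extract low dose by 3.03 ± 1.08 (SE) for this gene, without overlap as for 4.57% of all genes, and did not pass the threshold (limma, unadjusted p = 0.00829, adjusted p = 1). Antisense genes are annotated across Rapgef4, of which Rapgef4os1 and Rapgef4os2 were listed at 0 in all 15 libraries and Rapgef4os3 reached 0.0528 FPKM in 1 library.

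Pim2 (ENSMUSG00000031155; chromosome X, 7878262 to 7883432, plus strand) had 0.663, 0.542 and 0 FPKM in the cymopol high dose, 1.32, 0.127 and 0.448 FPKM with the high extract dose, 0, 0 and 0.277 FPKM in the cymopol low dose and 0, 11.4 and 0 FPKM in the extract low dose, against 6.24, 13.1 and 18.6 FPKM in Control. The extract low dose overlapped Control through replicate 27, whose 11.4 FPKM lay above Control replicate 2; the other treated libraries were all below Control. The differences from Control were -3.20 in the cymopol high dose, -3.01 in the extract high dose, -3.54 in the cymopol low dose and -2.44 in the extract low dose. PIM2 shares its substrates with 2 related kinases. Pim1 had 0.917, 0.831 and 7.30 FPKM in the cymopol high dose and 4.24, 2.51 and 4.58 FPKM with the high extract dose, against 0, 10.8 and 2.29 FPKM in Control. Pim3 had 4.25, 5.15 and 4.82 FPKM in the cymopol high dose and 5.66, 5.30 and 3.99 FPKM with the high extract dose, against 1.78, 15.2 and 0 FPKM in Control. The values of both paralogs in the high doses fell within the range of Control.

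Map4k2 (ENSMUSG00000024948; chromosome 19, 6341135 to 6355615, plus strand) was listed at 0 in all 3 libraries of the cymopol high dose and of the extract high dose, had 0, 0 and 5.67 FPKM in the cymopol low dose and 7.26, 0 and 0 FPKM in the extract low dose, against 0, 52.2 and 50.7 FPKM in Control. The groups overlapped in every contrast, since Control replicate 2 was at 0 as well, while the other 2 Control libraries lay above every treated library. The differences from Control were -3.81 in both high doses, -2.90 in the cymopol low dose and -2.79 in the extract low dose. Without Control replicate 2 they were -5.71 in both high doses, -4.80 in the cymopol low dose and -4.70 in the extract low dose. In the extract low dose the difference was -1.83 without Control replicate 4, -1.85 without replicate 5 and -1.07 with median-of-ratios scaling. Of the 40.5 estimated fragments in Control, 38.9 were in replicate 4 and 1.65 in replicate 5. Germinal centre markers, 4 genes, summed to at most 4.74 FPKM in a treated library, against 0, 20.5 and 2.37 FPKM in the 3 Control libraries. The deposited interval of Map4k2 ran from 35.5 to 68.9 FPKM in Control replicate 4 and from 0 to 130 FPKM in replicate 5. B cell markers summed to 492 and 0.407 FPKM in these libraries. Replicate 5 held 25233 estimated fragments and listed 51.3% of tested genes at 0. The part of lymphoid tissue in the level of Map4k2 was not tested. The haematopoietic paralog Map4k1 followed Control replicate 4 alone, with at most 2.89 FPKM in a treated library, against 0, 62.6 and 0 FPKM in Control. Map4k3, Map4k4 and Map4k5, which are expressed widely, did not pass the threshold in any contrast. Map4k4 had 10.1, 23.3 and 12.1 FPKM in the cymopol high dose, against 1.33, 32.0 and 1.27 FPKM in Control.

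Tead2 (ENSMUSG00000030796; chromosome 7, 45215753 to 45233644, plus strand) had 0, 3.15 and 0.104 FPKM in the cymopol high dose, 0.260, 0.660 and 0.464 FPKM with the high extract dose, 0, 0.381 and 3.38 FPKM in the cymopol low dose and 0, 0.480 and 0 FPKM in the extract low dose, against 13.6, 253 and 1.30 FPKM in Control. Both extract doses lay below all Control libraries, and each cymopol dose had 1 library above Control replicate 5. The differences from Control were -3.62 and -3.82 in the high doses of cymopol and extract and -3.49 and -4.17 in the low doses of cymopol and extract. Without Control replicate 4 they were -1.80 and -2.00 in the high doses and -1.67 and -2.35 in the low doses, still below 0. Of 87.1 estimated fragments in Control, 75.8 were in that library and 11.3 in replicate 2. Tead2 shares 13 bases at its end with Cd37, a B cell tetraspanin gene on the other strand, and the strand used in counting is not given in the sources used here. Cd37 had 0, 22.1 and 1.25 FPKM in the cymopol high dose, against 0, 26.5 and 0 FPKM in Control. The library with 22.1 FPKM of Cd37 had 3.15 FPKM of Tead2, and the one with 26.5 FPKM of Cd37 had 253 FPKM of Tead2. Whether fragments were divided between Tead2 and Cd37 was not tested.

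The other TEAD genes varied among themselves. Tead1 had 4.50, 3.36 and 3.09 FPKM in the cymopol high dose and 1.66, 3.52 and 8.24 FPKM with the high extract dose, against 0.0468, 0.625 and 3.13 FPKM in Control. Tead3 had 3.70, 33.0 and 4.94 FPKM in the cymopol high dose and 11.0, 6.27 and 6.14 FPKM with the high extract dose, against 0, 0.847 and 2.14 FPKM in Control. Both high doses of Tead3 lay above Control without overlap, by 2.45 ± 1.05 for cymopol and 2.25 ± 1.05 for the extract (SE), and neither passed the threshold (limma, adjusted p = 0.328 and 0.411). Such a gap was common, with 19.5% of all genes above Control without overlap in the cymopol high dose and 19.3% in the extract high dose. Tead4 was not tested, for low values: it had at most 1.03 FPKM in a treated library, against 42.5, 0 and 0 FPKM in Control. Its mean thus lay below Control in all 4 treated groups, as that of Tead2 did, through 1 Control library.

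Nop56 (ENSMUSG00000027405; chromosome 2, 130274430 to 130279313, plus strand) was listed at 0 in all 3 libraries of the cymopol high dose, had 0, 0 and 1.33 FPKM with the high extract dose, 9.80, 30.9 and 7.75 FPKM in the cymopol low dose and 0, 0 and 33.1 FPKM in the extract low dose, against 3.23, 82.5 and 41.8 FPKM in Control. Both high doses lay below Control, while every library of the cymopol low dose lay above Control replicate 2 and below the other 2 Control libraries. The differences from Control were -4.63 in the cymopol high dose, -4.22 in the extract high dose, -0.78 in the cymopol low dose and -2.93 in the extract low dose. Without Control replicate 4 the cymopol low dose stood 0.10 above Control, the only 1 of the 28 differences that changed sign when any 1 Control library was left out. It was -2.05 without Control replicate 2, -0.38 without replicate 5 and -1.28 with median-of-ratios scaling. The 3 libraries of the cymopol low dose held an estimated 0.369 fragments together, against 18.8 in Control, of which 18.4 were in replicate 4. The estimate takes the deposited interval as counting error alone, and lies below the number of fragments where a value is shared. In cymopol low dose replicate 35 the interval ran from 0 to 419 FPKM around 7.75 FPKM.

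The partners of NOP56 in the box C/D particle are given by level, with no test against Nop56. Nop58 had 4.43, 12.9 and 5.15 FPKM in the cymopol high dose and 0, 2.69 and 11.4 FPKM in the cymopol low dose, against 0, 19.2 and 0 FPKM in Control. Fbl, the methyltransferase fibrillarin, had 3.14, 7.24 and 4.49 FPKM in the cymopol high dose and 0, 5.61 and 1.98 FPKM in the cymopol low dose, against 0, 9.72 and 2.71 FPKM in Control. Of the 5 small RNA genes inside Nop56, Snord110 was listed at 0 in all 15 libraries and the other 4 had no value in all libraries. Idh3b, an isocitrate dehydrogenase subunit gene on the other strand, shares 5 bases with the end of Nop56. It had 28.4, 32.5 and 31.5 FPKM in the cymopol high dose and 31.0, 34.8 and 16.1 FPKM with the high extract dose, against 6.03, 10.8 and 6.93 FPKM in Control. In the high doses Idh3b thus lay above Control without overlap, as did 19.5% of all genes with cymopol and 19.3% with the extract, and it did not pass the threshold (limma, adjusted p = 0.477 for cymopol and 0.578 for the extract). In the extract low dose Idh3b had 1.25, 16.2 and 0.735 FPKM beside 0, 0 and 33.1 FPKM of Nop56. Whether fragments were divided between these neighbours was not tested.

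Tmem131l (ENSMUSG00000033767; chromosome 3, 83897655 to 84040175, minus strand) had 1.46, 2.59 and 3.76 FPKM in the cymopol high dose, 3.44, 4.51 and 1.07 FPKM with the high extract dose, 0, 0 and 0.432 FPKM in the cymopol low dose and 0, 0.800 and 0 FPKM in the extract low dose, against 3.92, 223 and 4.90 FPKM in Control. The extract high dose overlapped Control, and the cymopol high dose came within 1 FPKM of the lowest Control library. The differences from Control were -2.42 in the cymopol high dose, -2.34 in the extract high dose, -4.05 in the cymopol low dose and -3.94 in the extract low dose. Without Control replicate 4 they were -0.63 in the cymopol high dose, -0.54 in the extract high dose, -2.26 in the cymopol low dose and -2.15 in the extract low dose. The gap between the high doses and Control was thus mostly that of 1 library, with 66.7 of the 70.9 estimated fragments in Control. Its paralog Tmem131, which acts in the secretion of collagen, had 9.22, 17.8 and 11.6 FPKM in the cymopol high dose and 6.22, 13.2 and 17.1 FPKM in the cymopol low dose, against 0.463, 17.4 and 10.5 FPKM in Control.

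**Figure D2:**
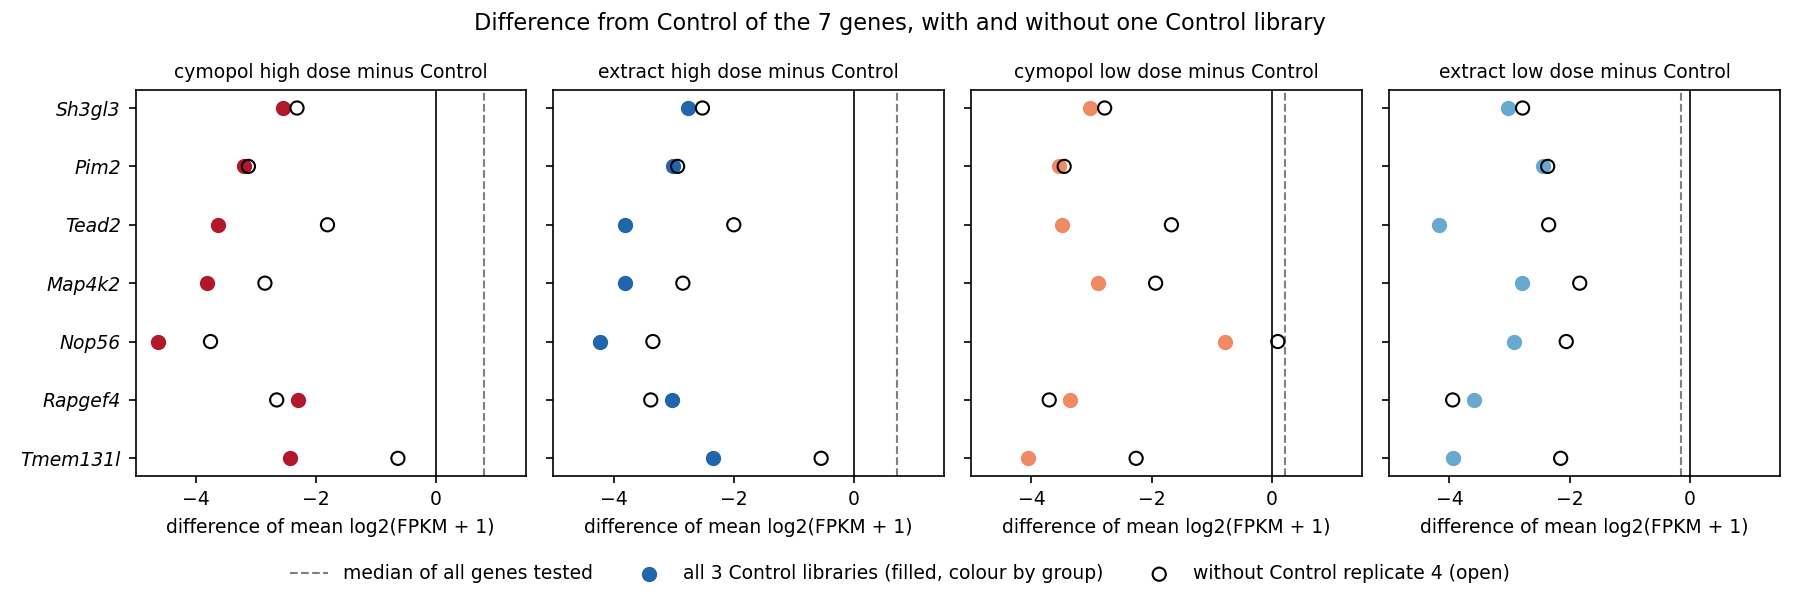
Difference of mean log2(FPKM + 1) from Control (horizontal axes) for each gene (rows) in the 4 treated groups (panels), with all 3 Control libraries (filled) and without Control replicate 4 (open); the dashed line is the median of all genes tested. Sh3gl3, Pim2 and Rapgef4 move little when that library is left out. Tead2, Tmem131l, Map4k2 and Nop56 move towards 0 in all 4 panels, and Nop56 crosses 0 in the cymopol low dose.

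Ordered by mean log2(FPKM + 1), Control came first for each of the 7 genes. The next group was the cymopol high dose for Sh3gl3 and Rapgef4, the extract high dose for Tmem131l, the cymopol low dose for Tead2 and Nop56, and the extract low dose for Pim2 and Map4k2. It overlapped Control except for Sh3gl3 and Rapgef4. Among the treated groups, neighbours in these orders overlapped, except that the cymopol high dose of Tmem131l lay above the extract low dose, its next neighbour. The 7 genes differ widely in length, from 4884 bases for Nop56 to 276235 for Rapgef4, beside a median span of 23595 for the genes tested.

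The depth behind these levels was low. Of 84 treated values 43 were listed at 0, as was 1 of 21 Control values. An estimated fragment count of at least 1 lay behind 10 treated and 16 Control values, and one of at least 5 behind 2 treated and 10 Control values. The lower bound of the deposited interval was above 0 for 2 of the treated values and 11 of the Control values. Summed over the 7 genes, treated libraries held 42.1 estimated fragments and Control libraries 275, of which 222 were in replicate 4, 44.4 in replicate 2 and 9.06 in replicate 5. Scaled to 1000000 fragments in protein-coding genes this was 2.66 to 71.5 in treated libraries, against 857, 979 and 359 in Control replicates 2, 4 and 5. These estimates take the interval as counting error alone, so where a value is shared among isoforms or with a neighbour they lie below the number of fragments. The genes were chosen for higher FPKM in Control, so the gap between Control and treated sums restates that choice.

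**Figure D3:**
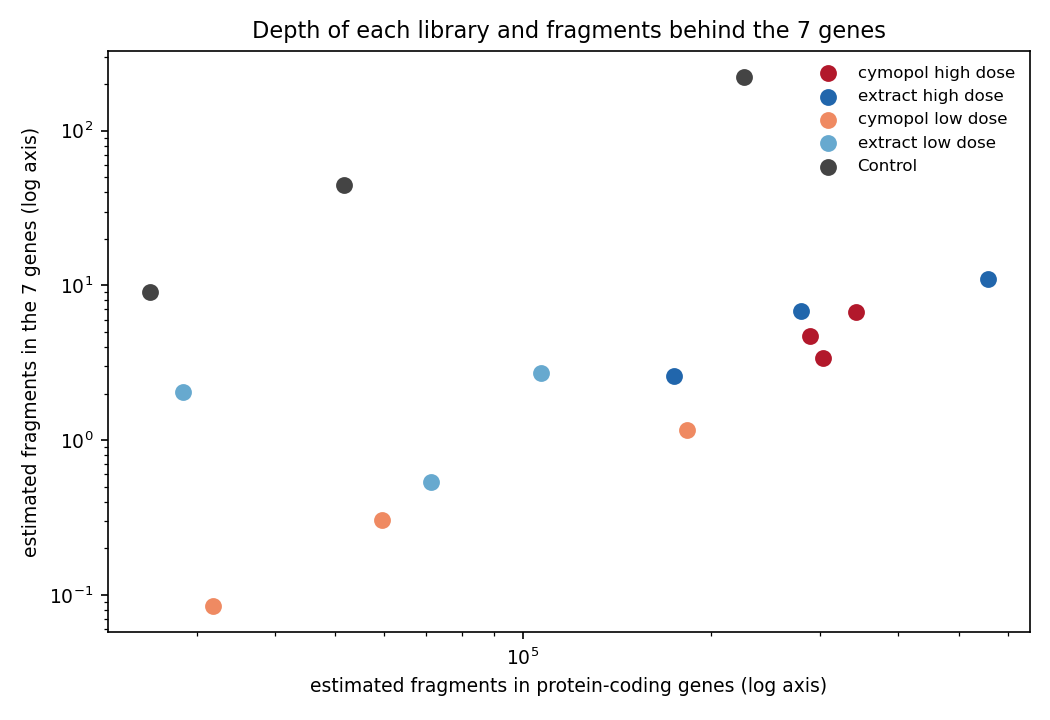
Estimated fragments in the 7 genes together (vertical log axis) against estimated fragments in all protein-coding genes (horizontal log axis) for each of 15 libraries. Treated libraries, up to 556401 fragments deep, hold at most 11.0 fragments of the 7 genes, while the 3 Control libraries hold 44.4, 222 and 9.06. The choice of genes by their Control level enters this separation.

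The treated groups were compared with each other by contrasts that the choice of genes did not use. What these contrasts could show was limited. Sh3gl3, Pim2, Tead2 and Map4k2, 4 of the 7, reached 1 FPKM in at most 2 treated libraries and passed the filter on low values only with their Control libraries, while Nop56, Rapgef4 and Tmem131l did so in 5, 4 and 6 treated libraries. In 2 of the 28 differences (Map4k2 between the high doses and Sh3gl3 between the low doses) every library of both groups was listed at 0, so no difference was possible. Of 28 differences (7 genes in 4 contrasts), 0 passed the threshold with limma, 0 did with voom on estimated fragments, and 1 had an unadjusted p under 0.05 (Nop56, lower in the cymopol high dose than in its low dose, a contrast in which 0.495% of all genes were lower at that level). Among all genes, 0.00869% passed the threshold in the cymopol and in the extract dose contrasts, 0.0174% in cymopol against extract at the high doses and 0.0% in the same contrast of low doses. The adjusted p-values of the 7 genes ran from 0.638 to 1.

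Nop56 was lower in the cymopol high dose than in the cymopol low dose by 3.85 on the log2(FPKM + 1) scale, a difference of -3.85 ± 1.21 (SE; 95% interval -6.32 to -1.39; limma, adjusted p = 0.683). The low-dose level had an estimated 0.369 fragments, which lies below the number of fragments if the value is shared among isoforms or with a neighbour. The 2 groups did not overlap, with all 3 high-dose libraries at 0, whereas the median gene was 0.59 higher in the high dose and 0.817% of genes were lower without overlap. In the extract, the high dose minus the low dose was -1.29 (95% interval -3.76 to 1.18), and the groups overlapped at 0. At the low doses, cymopol minus extract was 2.16 for Nop56 (95% interval -0.31 to 4.62; adjusted p = 1). Control replicates take no part in these 3 values except through the shared estimate of spread. With voom on estimated fragments the difference between cymopol doses was -2.59. Over the 12 treated libraries the level of Nop56 had r = -0.506 with log2 depth. Cymopol dose and depth moved together and cannot be told apart for this gene.

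Tmem131l had higher means in the high doses than in the low doses, with intervals that held 0. The cymopol high dose exceeded the cymopol low dose by 1.63 (95% interval -0.60 to 3.86; limma, adjusted p = 0.875), and the extract high dose exceeded the extract low dose by 1.60 (95% interval -0.63 to 3.83; adjusted p = 0.638). Neither pair of groups overlapped, as was so for 9.74% of all genes higher in the cymopol and 20.9% in the extract high dose, and the median gene was 0.59 and 0.89 higher. With voom on estimated fragments the 2 differences were 0.33 and 0.35. The high-dose libraries were also the deeper ones: over the 12 treated libraries the level of Tmem131l had r = 0.855 with log2 depth, as a description of libraries whose depth and dose move together. Dose and depth cannot be told apart here. For the 5 remaining genes, differences between doses lay between -1.02 and 1.05, with intervals reaching from -3.26 to 2.96.

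Cymopol and the extract were compared at the high and at the low doses, leaving aside the 2 differences with every library at 0. At the high doses, cymopol minus extract ranged from -0.41 for Nop56 to 0.73 for Rapgef4, with 95% intervals that reached from -2.87 to 2.63, and differences inside those bounds were not detectable at this depth. At the low doses it ranged from -1.09 for Pim2, where 1 extract library had 11.4 FPKM, to 2.16 for Nop56. The groups of each gene overlapped in both contrasts, and these intervals do not show that the agents act alike. The doses are given in different units, and the content of cymopol in the extract is not given in the sources used here.

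**Figure D4:**
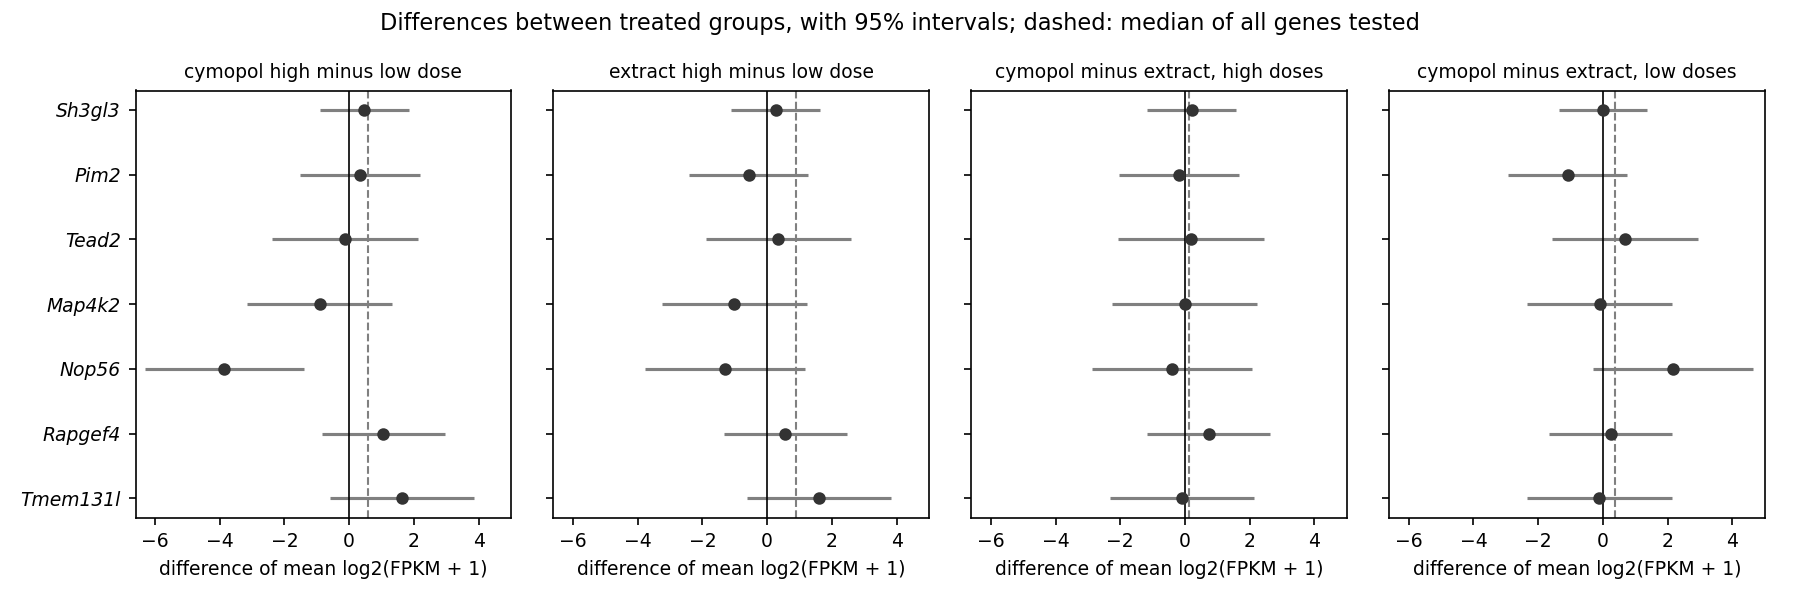
Differences of mean log2(FPKM + 1) between treated groups (horizontal axes) with 95% intervals for the 7 genes (rows) in 4 contrasts (panels); dashed lines mark the median of all genes tested. The interval of Nop56 in cymopol high minus low dose, -6.32 to -1.39, is the only 1 of 28 that leaves out 0, and its adjusted p is 0.683.

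Paralogs and pathway partners were examined in 8 lists, which hold 94 genes, 85 of them tested. None of the 85 passed the threshold in any of the 8 contrasts with limma or with voom. At an unadjusted p under 0.05, 7 were higher and 0 lower than Control in each high dose (of all genes, 12.4% were higher and 0.756% lower at that level in the cymopol high dose, and 10.5% higher and 1.02% lower in the extract high dose). In the cymopol low dose 1 was higher and 1 lower (3.89% and 1.79% of all genes), and in the extract low dose 0 were (1.11% higher and 2.81% lower among all genes). Of all genes, 0.0174% passed the adjusted threshold in the cymopol high dose against Control, 0.00869% in the extract high dose and 0.0% in each low dose. The median difference of the 85 from Control was 0.93 in the cymopol high dose, 0.65 in the extract high dose, 0.18 in the cymopol low dose and -0.33 in the extract low dose, beside medians over all genes of 0.81, 0.71, 0.23 and -0.14. Of the 13 tested genes that are paralogs of the 7 or, as Fbl, a complex partner, 2 lay below Control in the cymopol high dose, 1 in the extract high dose, 3 in the cymopol low dose and 6 in the extract low dose.

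The abundant partners of each pathway are given by level. For endocytosis, Dnm2, the dynamin of most tissues, had 90.1, 56.1 and 137 FPKM in the cymopol high dose, against 6.82, 43.1 and 193 FPKM in Control. Of the 12 tested endophilin partners, 0 passed the threshold, and 4 lay below Control in the cymopol high dose. Among PIM substrates, Cdkn1a, the cell cycle inhibitor p21, had 49.6, 51.2 and 40.5 FPKM in the cymopol high dose and 43.5, 81.4 and 16.6 FPKM with the high extract dose, against 3.28, 13.9 and 23.2 FPKM in Control; the cymopol libraries lay above Control without overlap, as did 19.5% of all genes. Of 8 genes in that list 1 lay below Control in the cymopol high dose and 0 in the extract high dose.

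In the Hippo list (17 of 20 tested), Yap1, the coactivator that TEAD proteins bind, had 8.83, 38.8 and 6.07 FPKM in the cymopol high dose, against 0.480, 8.10 and 18.5 FPKM in Control. Axl, a receptor kinase gene and known YAP target, had 4.47, 12.1 and 4.20 FPKM in the cymopol high dose and 5.07, 6.22 and 2.50 FPKM with the high extract dose, against 1.65, 113 and 14.4 FPKM in Control. Stk3, the Hippo kinase MST2, had 3.45, 12.8 and 5.53 FPKM in the cymopol high dose, against 96.5, 39.7 and 0 FPKM in Control. For both genes the treated libraries overlapped Control, whose own libraries were far apart. In the MAP4K and JNK list (12 of 14 tested), Rab8a, a GTPase that binds MAP4K2, had 33.8, 26.9 and 46.9 FPKM in the cymopol high dose, against 5.18, 24.4 and 0.523 FPKM in Control.

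For ribosomal RNA modification, Ncl, which encodes nucleolin, had 12.7, 29.6 and 37.9 FPKM in the cymopol high dose, against 2.33, 46.3 and 2.06 FPKM in Control. The box C/D list (9 of 11 tested) had 1 gene below Control in the cymopol high dose and 2 in the extract high dose. Gar1, of the box H/ACA particles that direct pseudouridylation (5 of 6 tested), had 16.0, 10.5 and 8.61 FPKM in the cymopol high dose and 12.3, 3.97 and 2.29 FPKM with the high extract dose, and was listed at 0 in all 3 Control libraries. In the EPAC and Rap list (17 of 17 tested), Prkar1a, the regulatory subunit of the other main cyclic AMP sensor, had 64.7, 62.8 and 7.90 FPKM with the high extract dose, against 1.39, 16.4 and 0 FPKM in Control. Ctnnb1, which encodes beta-catenin, led the list of Tmem131l partners (5 of 5 tested), with 63.6, 94.3 and 87.9 FPKM in the cymopol high dose, against 7.42, 93.1 and 80.9 FPKM in Control.

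**Figure D5:**
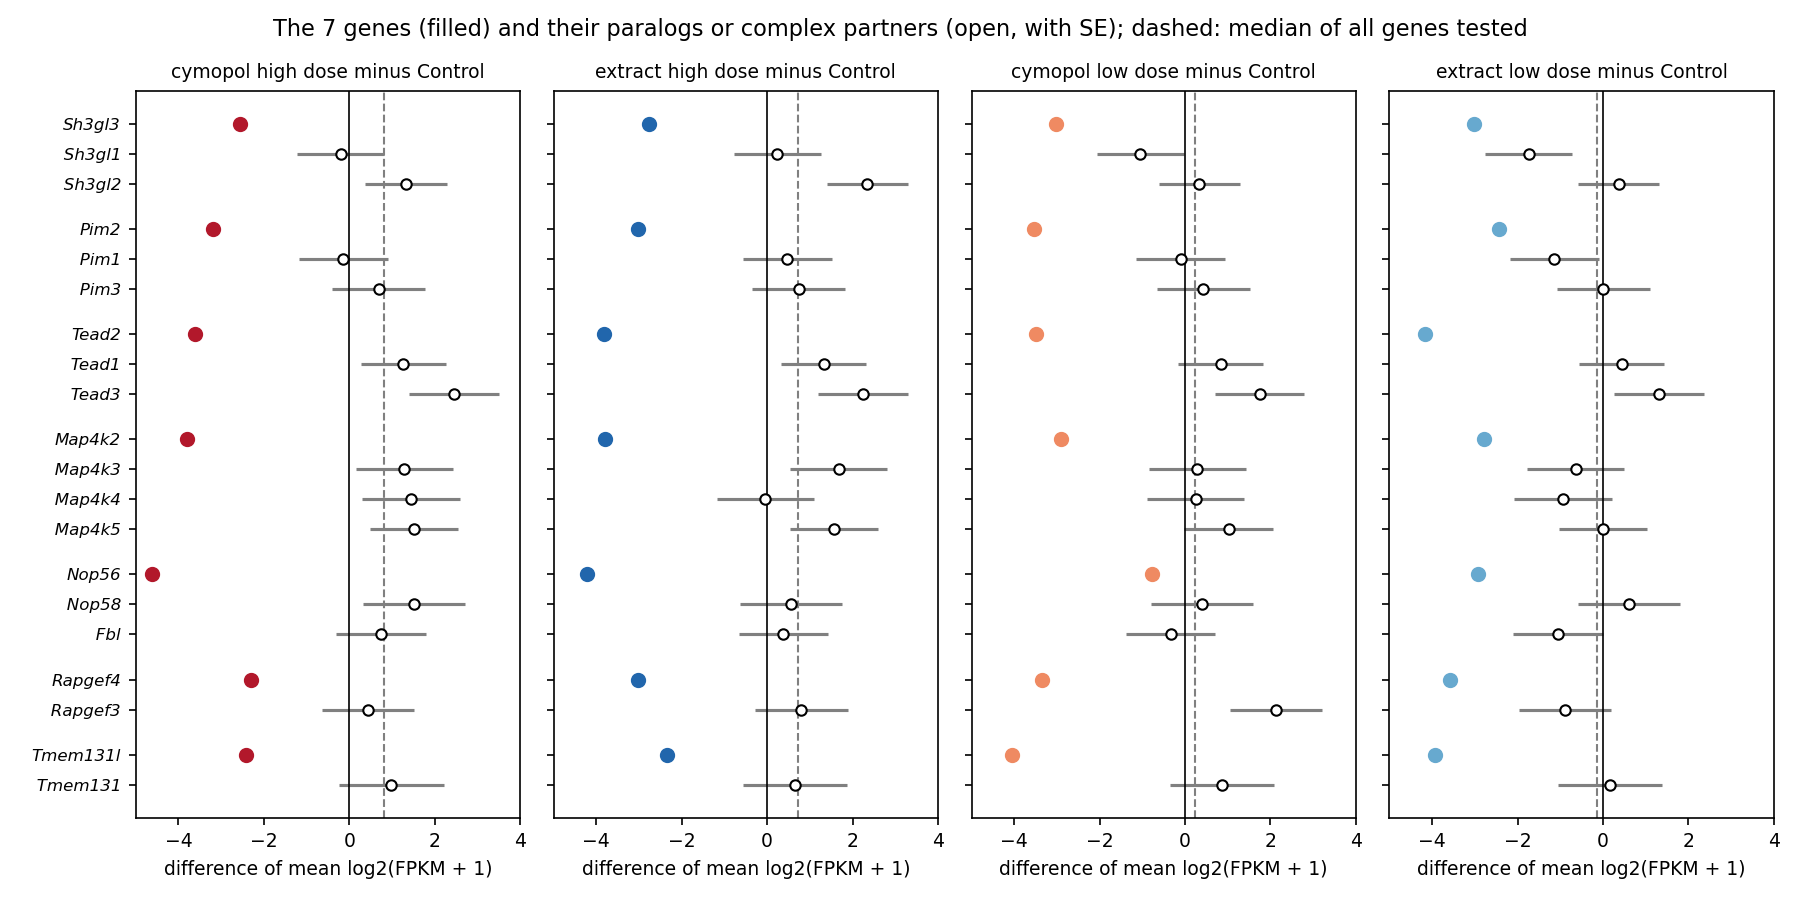
Difference of mean log2(FPKM + 1) from Control (horizontal axes) for the 7 genes (filled) and their tested paralogs or complex partners (open, with SE) in the 4 treated groups (panels); the dashed line is the median of all genes tested. Open points scatter around the dashed lines in each panel, with 2, 1, 3 and 6 of 13 below 0, and the filled points were placed left of 0 by the choice of genes.

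Lymphoid markers and the 7 genes were set side by side library by library. B cell markers summed to 31.4 FPKM in cymopol low dose replicate 33, the highest of the treated libraries, and that library, with 31853 estimated fragments, listed 5 of the 7 genes and 50.5% of all tested genes at 0. T cell markers, 6 genes, summed to at most 6.96 FPKM in a treated library, against 0.122, 49.2 and 3.26 FPKM in the Control libraries. Sh3gl3, Pim2, Map4k2, Nop56, Rapgef4 and, narrowly, Tmem131l were above every treated library in Control replicate 5, where B cell markers summed to 0.407 FPKM. That library held 9.06 estimated fragments of the 7 genes together, and the lower bound of the deposited interval was 0 for all 7. Tead2 and Tmem131l were at 1.30 and 4.90 FPKM in that library and at 253 and 223 FPKM in Control replicate 4. The part of lymphoid tissue in the levels of replicate 4 was not tested.

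The genes whose pattern over the 15 libraries was most like the mean standardized profile of the 7 were Cep295nl (Pearson r = 0.935), Ifi208 (0.934), Rab30 (0.875), Phxr4 (0.874) and Ostm1 (0.868), as a description over libraries that share depth and group. Between pairs of the 7 genes r had a median of 0.563 over 21 pairs and ran from 0.277 (Nop56 and Tmem131l) to 0.848. The high values of Control, which the choice of genes asked for, enter each of these.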

How the data were processed

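RNA of large intestine was measured in 15 libraries of 5 groups. Per the labels' protocols, 90 ng of total RNA was depleted of ribosomal RNA and made into libraries with a low-input kit. Per the submitters' processing notes, STAR 2.4.0j and GRCm38.p4 were used. The values the authors deposited are FPKM, each with the bounds of an interval, in 1 table per library, in the columns of a Cufflinks gene tracking table per the file headers; of the quantifier's version, any scaling and the strand setting, nothing is given in the sources used here. Part of each table holds loci assembled in that library only. A gene's FPKM was taken from its Ensembl row or, where it had none, from the locus whose span matched it best in both directions (shared at least 0.5 of the joint span, GENCODE M21); the 7 genes came mostly from such loci.

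Of 43316 genes valued in all 15 libraries, the 11505 that reached 1 FPKM in 3 or more were tested. limma 3.58.1 (R 4.3.3) was fitted to log2(FPKM + 1) with 1 mean a group over all 15 libraries and an intensity trend, two-sided, with Benjamini-Hochberg adjustment over all genes and a threshold of 0.05. A difference on this scale understates the change of low genes. An exact permutation test of 3 against 3 libraries cannot go below p = 0.1 and was not used. Fragments were estimated as the squared ratio of FPKM to its standard error, taken as 0.5 of the distance from FPKM to its upper bound, and cover counting error only. The fit was run on simulated data, drawn from normal distributions around the gene means. Known shifts were put in 1 group, for genes of spread below the median. Such draws hold no values piled up at 0, so they do not show how the fit performs on genes like the 7. Depth and its effect on precision stand in the results. The 7 genes and the partner lists were chosen with earlier results of these data known. Named are all 7 genes, their paralogs, overlapping genes, up to 3 partners a list with the highest mean FPKM, and the 5 genes of most like pattern. Promoter windows came from RefSeq (GRCm38.p6). Alternatives tried were another pseudocount, no filter, median-of-ratios scaling, Ensembl rows only, voom on estimated fragments, fits of 2 groups only, leaving out each library, and leaving out 3 libraries with over 20% of fragments outside genes.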

Additional observations from a re-analysis of the deposited data

How the results depend on the processing

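Depth limits these results: most treated values rest on less than 1 estimated fragment, and Control replicate 4 holds most of the fragments behind the Control levels. All 28 differences from Control stayed below 0 with a pseudocount of 0.1, no filter, median-of-ratios scaling, voom and fits of 2 groups. They did so too without the 3 libraries with over 20% of fragments outside genes. Nop56 in the cymopol low dose turned to 0.10 without Control replicate 4. The choice of genes largely set these signs, so they are no separate support. With no filter and with fits of 2 groups the differences equal the main ones by construction. With Ensembl rows only, none of the 7 genes could be tested. The alternative without 3 libraries was chosen after seeing the data and leaves 1 Control library, replicate 4, which is assumed to vary like the others. The cause of the changes below was not tested. No paired analysis was possible because the replicate numbers of the groups differ.

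Genes called over the whole table numbered 2 (cymopol high dose), 1 (extract high dose), 0 (cymopol low dose) and 0 (extract low dose) against Control, 1 and 1 between doses of cymopol and of the extract, and 2 and 0 for cymopol against extract at high and low doses. With a pseudocount of 0.1 they were 7 in the cymopol high dose, 3 in the extract high dose and 1 in the extract low dose against Control, 0 between cymopol doses and 1 for cymopol against extract at the high doses. With no filter, and with Ensembl rows only, they were 0 in the cymopol high dose against Control, 0 between cymopol doses and 1 for cymopol against extract at the high doses. With median-of-ratios scaling they were 0, 3, 2 and 1 against Control in the order above, 0 between cymopol doses and 1 at the high doses. With voom they were 121 (92 of them lower) in the cymopol high dose and 140 (104 lower) in the extract high dose against Control. In the main fit 0 of the genes called in these contrasts were lower. With voom they were also 4 between cymopol doses, 2 between extract doses and 4 at the high doses. With fits of 2 groups they were 0 in both high doses against Control and 0 between doses of each agent. Without the 3 libraries they were 162, 206, 350 and 251 against Control in the order above and 0 between cymopol doses. In that setting 1 partner (Axl, lower) was called in the extract high dose and 1 in the cymopol low dose. There 7 of the 7 genes lay below Control without overlap in each low dose. As Control was then replicate 4 alone, this means only that they lay below that library. The share over all genes was not computed for that setting, so the count of these chosen genes has no background.

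Leaving out 1 library gave 0 to 8 genes called in the cymopol high dose against Control, 1 to 8 in the extract high dose, 0 to 9 in the cymopol low dose and 0 to 8 in the extract low dose, with 8, 8, 9 and 5 without Control replicate 2, 7 in the cymopol high dose without extract low dose replicate 26, and 8 in the extract low dose without Control replicate 5. It gave 0 to 3 between cymopol doses (3 without cymopol high dose replicate 11), 1 to 2 between extract doses and 1 to 3 for cymopol against extract at the high doses. Of the 7 genes, 4 to 7 lay below Control without overlap in the extract low dose, 7 without Control replicate 2. Over all genes the share was 1.43% with every library and was not computed with fewer, where groups overlap less easily.

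Between treated groups, where none of the 7 genes was called, some signs turned. With voom, Nop56 was -0.18 and Rapgef4 -0.12 for cymopol minus extract at the low doses, Pim2 -1.97, Rapgef4 -0.55 and Sh3gl3 -1.89 for cymopol high minus low dose, and Rapgef4 -1.15, Sh3gl3 -2.15 and Tead2 -2.16 for extract high minus low dose. With median-of-ratios scaling, Rapgef4 was -0.17 for extract high minus low dose and -0.30 for cymopol minus extract at the low doses. With a pseudocount of 0.1, Pim2 was 0.21 for extract high minus low dose and Tead2 -0.41 for cymopol minus extract at the high doses. Without the 3 libraries, Map4k2 was 0.91 for cymopol minus extract at the low doses. Leaving out 1 library gave -0.79 to 0.50 for Tead2 between cymopol doses; -1.17 to 0.64 for Pim2, -2.14 to 0.41 for Nop56 and -0.23 to 1.03 for Rapgef4 between extract doses. For cymopol minus extract it gave -0.26 to 0.47 for Sh3gl3, -0.42 to 0.10 for Pim2, -0.47 to 0.56 for Tead2 and -0.51 to 0.20 for Tmem131l at the high doses, and -1.70 to 0.12 for Pim2, -1.02 to 0.91 for Map4k2 and -0.28 to 0.17 for Tmem131l at the low doses.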

Other observations

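Introns of Rapgef4 and Tmem131l held short loci assembled apart from the genes, and none of the 30 and 29 loci inside these genes touched an exon. A locus of 53 to 56 bases in an intron of Rapgef4 (GRCm38 chromosome 2, 72022013 to 72022069) was assembled in 11 libraries, 8 treated and 3 Control. Its deposited values ran from 4101 to 49685 FPKM on 4.00 to 11.9 estimated fragments, while Rapgef4 itself reached 22.8 FPKM. A locus of 52 to 59 bases in an intron of Tmem131l (chromosome 3, 84003588 to 84003646) was assembled in 9 libraries, 6 treated and 3 Control, with 10199 to 71058 FPKM on 4.00 to 29.0 fragments. Scaling by length gives such short loci high FPKM from few fragments, and their values do not enter those of the genes. These loci were chosen after their values were seen.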
